A study of Homo sapiens with 12 samples.

Results

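The Rab GTPases are the largest family of small GTP-binding proteins that direct membrane traffic. Here they were taken as every protein-coding gene whose symbol is RAB followed by a number, with at most a letter and a further digit, after the Ensembl IDs of the deposited table had been matched to gene symbols. Of 60649 gene IDs in the table, 71 carried such a symbol, 8 of these were pseudogenes, and 63 were members. Of the 63 members, 55 had enough reads to be tested, and 8 did not, with at most 5 reads in any library: RAB3C, RAB6C, RAB6D, RAB19, RAB25, RAB33A, RAB39B and RAB44.

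RNA was sequenced from MDA-MB-231 cells, an established human breast cancer line of mesenchymal, triple-negative type, in 4 groups of 3 libraries. Control cells carried a sham-targeting short hairpin RNA (shRNA), SIRT1 KD cells an shRNA against SIRT1, an NAD-dependent deacetylase, IGF2BP2 KD cells an shRNA against IGF2BP2, an RNA-binding protein that reads m6A-marked transcripts, and SIRT1+IGF2BP2 double KD cells both. All 4 groups had been infected with lentivirus made in HEK-293T cells in the presence of Polybrene at 8 µg/mL, and were kept in RPMI-1640 with 10% serum and 2.0 µg/mL puromycin. The study asks which transcripts depend on the 2 targeted proteins. All groups come from 1 cell line, and hairpin sequences were not given in the sources used here. Repeats of a condition are called independent in the design text, without saying whether each was a separate infection, and p-values therefore measure only how far these libraries spread.

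Values are read counts that the authors had divided by a size factor per library, called normalised counts below. SIRT1 was at 799, 841 and 863 normalised counts in control, 547, 496 and 539 in SIRT1 KD, 763, 691 and 730 in IGF2BP2 KD, and 396, 380 and 436 in double KD. IGF2BP2 was at 3045, 3055 and 3127 in control, 3791, 3759 and 3720 in SIRT1 KD, 709, 841 and 736 in IGF2BP2 KD, and 992, 715 and 884 in double KD. Each targeted transcript was thus lowest in the groups named for it. SIRT1 KD left 63.2% of the control SIRT1 level and double KD 48.4%, so the depth of SIRT1 knockdown was not equal. IGF2BP2 was higher in SIRT1 KD than in control, at 122% of its level. Double KD replicate 2 had 15243152 reads in genes, the other 11 libraries had 19522606 to 22509142, and in that replicate mitochondrial transcripts took 1.18% of reads against 1.99% to 2.57% elsewhere. It stood apart from its group, so double KD results are also given without it. Of the markers of the line, VIM (17403 to 28125), CD44 (14105 to 19934), FN1 and ZEB1 were present, SPARC was low (35.2 to 76.9), ESR1, PGR and CDH1 were at most 24.1, and EPCAM, which should be near 0, lay between 134 and 243. Markers of the packaging cells (NEFL, NEFM, LIN28B, PAX2) did not pass 2.87.

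Rab proteins switch between a GDP-bound form in the cytosol and a GTP-bound form on a membrane. Exchange factors load GTP and GTPase-activating proteins end the active state, while in between each Rab recruits effectors such as tethers, motors and coat adaptors. A newly made Rab is handed by a Rab escort protein (CHM or CHML) to a geranylgeranyl transferase that adds its lipid anchor, and GDI proteins extract it again after use. Because single Rabs mark single compartments, the family is often read as a map of the secretory and endocytic pathways. In breast cancer cells Rabs are best known for integrin recycling, matrix protease delivery and exosome release. The members below are grouped by the transport step each is best known for, and RNA levels do not report the active, membrane-bound share of a Rab.

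Among transcripts that were lower in SIRT1 KD, a pair of overlapping 7-base sequences in the 3′ untranslated region (UTR), CTCAGAT and TCAGATA, is common. These 7-mers had been picked on this same comparison, so their link with lower transcripts in general is no finding here. What matters for the Rabs is which members carry them, and the sequences that carry that result are shown with the 7-mer, or the joined 8-mer CTCAGATA, in capitals. All are read 5′ to 3′ on the transcript strand from GENCODE 29 on GRCh38, and all but the first lie in the last exon of the 3′ UTR. The SIRT1 site is in coding exon 8 of 9, RAB21 and RAB22A are members called lower and higher in SIRT1 KD, RAB27B is the member with the joined 8-mer, and the other 3 genes belong to the Rab cycle.
SIRT1, chr10:67912487-67912510, plus strand: tgaagtgcCTCAGATAttaattaa
RAB21, chr12:71789369-71789391, plus strand: ttacatatTCAGATAgtatagtt
RAB21, chr12:71792875-71792897, plus strand: gtgtttgaTCAGATAtgtacctg
RAB22A, chr20:58362190-58362212, plus strand: attgctctCTCAGATccataatc
RAB27B, chr18:54892274-54892297, plus strand: ctcggtgcCTCAGATAcctctgtg
CHML, chr1:241629164-241629187, minus strand: cagttccaCTCAGATAactttaag
RAB3GAP1, chr2:135169197-135169219, plus strand: cctgttaaCTCAGATttctggat
USO1, chr4:75814013-75814035, plus strand: tcatacaaCTCAGATttagtagt

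In control cells the family spanned 3 orders of magnitude when levels were expressed per kilobase (kb) of merged exon. RAB1B (ER to Golgi transport) led with 1295 ± 30.9 normalised counts per kb (SD, n = 3), followed by RAB10 (exocytic and recycling carriers) at 1263 ± 18.9 and RAB7A (fusion of late endosomes with lysosomes) at 1224 ± 45.4. These neighbours lay within about 1 SD of each other, whereas RAB34 (926 ± 10.7), RAB14 (911 ± 12.97) and RAB32 (865 ± 31.9) formed a lower step. At the other end, RAB39A stood at 0.862 ± 0.783, RAB3B at 1.56 ± 0.354 and RAB17 at 2.32 ± 0.110. RAB25, associated with epithelial cells, was among the 8 members too low to test. All 63 members together held 0.249% to 0.276% of the normalised counts of a library. Their sum was 55762 ± 881 normalised counts in control, and the knockdown groups stood at 99.2% (SIRT1 KD), 93.4% (IGF2BP2 KD) and 95.01% (double KD) of it.

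**Figure D1:**
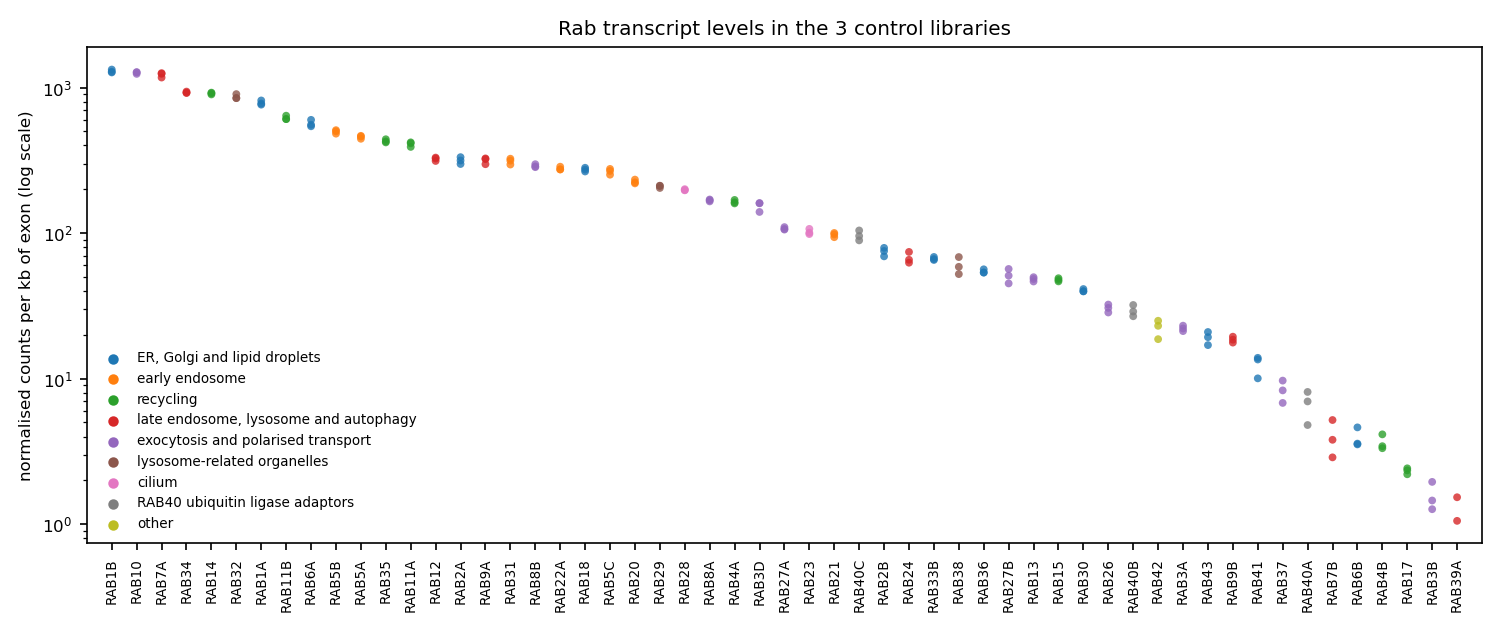
Level of the 55 tested Rab genes in the 3 control libraries, in normalised counts per kb of merged exon on a log scale, one point per library and coloured by transport step; the control library in which RAB39A is at 0 cannot be drawn. RAB1B, RAB10 and RAB7A lead at 1295, 1263 and 1224 on average, and RAB3B and RAB39A are the lowest.

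Across the family the 3 knockdowns gave different sets of calls rather than a shift of all members. A call is a Benjamini-Hochberg adjusted p under 0.05 over all 17576 tested genes in a limma fit on log2(normalised count + 1), a scale that understates changes of low genes. In SIRT1 KD against control, 19 of 55 members were called, 7 higher and 12 lower, where 28.6% of all tested genes were called (12.9% higher, 15.7% lower). In IGF2BP2 KD 10 were called, 4 higher and 6 lower, against 16.3% of all genes (6.86% higher, 9.39% lower). In double KD 31 were called, 12 higher and 19 lower, against 34.2% of all genes (16.7% higher, 17.5% lower), so 56.4% of the tested members were called there. These counts move with the libraries fitted: with only the 2 groups compared in the fit they were 31 in SIRT1 KD (46.7% of all genes called), 20 in IGF2BP2 KD (30.4%) and 20 in double KD (26.7%), so double KD no longer had the most calls. The median log2 fold changes of the members were small, at 0.03, -0.08 and -0.10, beside -0.00, -0.00 and 0.01 over all genes. Without double KD replicate 2 the double KD count was 32, 14 higher and 18 lower, and 28 of these were among the 31. The share of all genes for that double KD count is not given here. In the same fit the IGF2BP2 KD count rose to 19, 6 higher and 13 lower, where 27.8% of all genes were called. In all, 38 of 55 members (69.1%) were called in at least 1 of the 3 comparisons, which share the control libraries, against 48.1% of all genes. Every tested member has a protein-coding 3′ UTR, which only 13123 of the 17576 genes have. In double KD, 21.8% of the 10498 of these without the 7-mers above were higher and 17.3% lower. Of the 2625 with a 7-mer, 15.9% were higher and 36.2% lower. In all 3 comparisons both sets were called more often than all genes. The shares over all genes are thus a low yardstick for the members, here and below.

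The 6 comparisons included 3 that do not rest on control. Double KD against SIRT1 KD gave 18 called members, 8 higher and 10 lower, against 22.6% of all genes (11.9% and 10.7%). Double KD against IGF2BP2 KD gave 23, 13 higher and 10 lower, against 31.6% of all genes (16.4% and 15.2%). The interaction, which asks whether double KD departs from the sum of the single knockdown changes, called RAB8B and RAB28, both higher, where 2.86% of all genes were called (1.7% higher, 1.16% lower). Without double KD replicate 2 these counts were 22, 28 and 7, and the interaction then called RAB8B, RAB21, RAB23, RAB27A, RAB28 and RAB30 higher and RAB15 lower. The share of all genes called in that fit is not set beside these counts, so they do not show a result particular to the members.

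**Figure D2:**
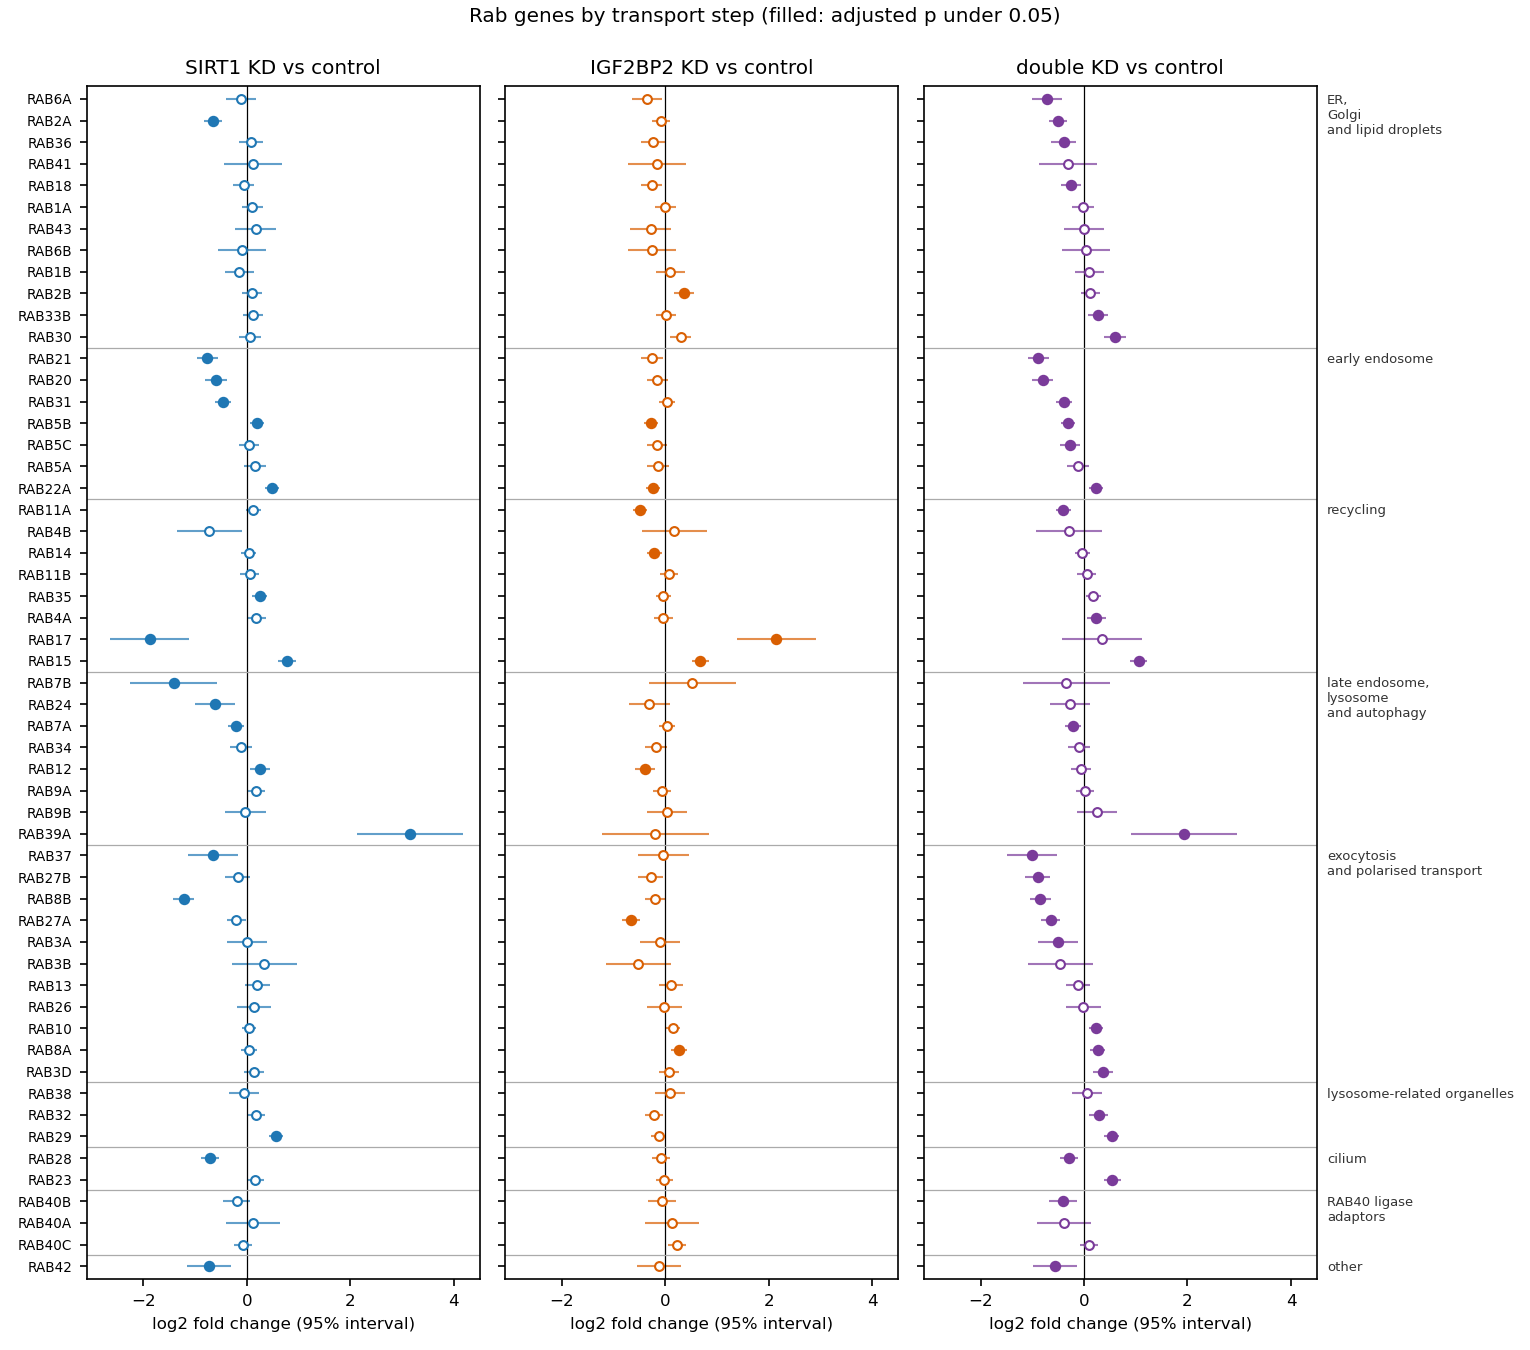
Log2 fold change of each tested Rab gene against control in SIRT1 KD, IGF2BP2 KD and double KD, with its 95% interval, ordered within transport steps by the double KD value; filled points have an adjusted p under 0.05. Filled points number 19, 10 and 31, and lie on both sides of 0 in each panel.

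Among Rabs of the ER, Golgi and lipid droplets, 12 of 14 members were tested. RAB2A, which acts between ER and Golgi, was lower in SIRT1 KD and in double KD. It measured 1687, 1784 and 1881 normalised counts in control, 1170, 1092 and 1146 in SIRT1 KD, 1803, 1487 and 1764 in IGF2BP2 KD, and 1219, 1171 and 1396 in double KD. The SIRT1 KD and double KD libraries all lay under every control library, while IGF2BP2 KD overlapped control. Its log2 fold changes were -0.65 (SE 0.0836, limma adjusted p = 1.06e-05) in SIRT1 KD and -0.50 (SE 0.0836, adjusted p = 0.000128) in double KD. Its near-namesake RAB2B did not follow: it was called in IGF2BP2 KD only, higher by 0.36 (adjusted p = 0.0092), and that call was lost without control replicate 1 (adjusted p = 0.0636) or IGF2BP2 KD replicate 3 (0.0510).

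RAB6A, a Rab of retrograde Golgi traffic, fell in double KD. Its values were 2654, 2720 and 2937 in control, 2539, 2481 and 2651 in SIRT1 KD, 2201, 2059 and 2246 in IGF2BP2 KD, and 1922, 1227 and 2027 in double KD. The double KD libraries lay under those of every other group, with replicate 2 far under its partners. The log2 fold change was -0.72 (SE 0.134, adjusted p = 0.000667), and -0.49 without that replicate. RAB6A has close relatives in RAB6C and RAB6D, and reads may be split among them. RAB30, another Golgi Rab, was the member of this step that rose most, with 488, 472 and 471 in control, 473, 478 and 545 in SIRT1 KD, 626, 523 and 607 in IGF2BP2 KD, and 759, 619 and 813 in double KD. The double KD libraries lay above every control library, by 0.60 on the log2 scale (adjusted p = 0.000124). Smaller double KD calls of this step were RAB18 (lipid droplets, -0.25), RAB36 (-0.39) and RAB33B (Golgi and autophagy, 0.27). The RAB18 call was lost without any 1 of 9 libraries (adjusted p up to 0.162, without double KD replicate 2), the RAB36 call without double KD replicate 3 (0.0742), and the RAB33B call without any 1 of 5 (up to 0.134, without double KD replicate 3). RAB1B, the most abundant Rab of the step per kb of exon, and RAB1A were called in none of the 3 comparisons.

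All 7 early endosome members were tested, and this step held calls in opposite directions. RAB21, which binds integrins and carries them through early endosomes, measured 1503, 1607 and 1571 in control, 878, 907 and 967 in SIRT1 KD, 1392, 1159 and 1354 in IGF2BP2 KD, and 901, 703 and 957 in double KD. Both groups with SIRT1 knockdown lay far below control and IGF2BP2 KD, with no overlap. The log2 fold changes were -0.77 (SE 0.0990, adjusted p = 1.18e-05) in SIRT1 KD and -0.88 (SE 0.0990, adjusted p = 1.62e-06) in double KD. RAB20, found on phagosomes and macropinosomes, had the same order, with 339, 333 and 354 in control, 247, 203 and 228 in SIRT1 KD, 313, 315 and 292 in IGF2BP2 KD, and 200, 210 and 179 in double KD. Its SIRT1 KD and double KD libraries overlapped each other but not control. Its log2 fold changes were -0.60 (SE 0.0976, adjusted p = 0.000135) in SIRT1 KD and -0.80 (SE 0.0976, adjusted p = 4.11e-06) in double KD.

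RAB22A and RAB31 belong to the RAB5-related branch of the family and went in opposite directions in SIRT1 KD. RAB22A, which recycles cargo taken up without clathrin, measured 2540, 2546 and 2655 in control, 3572, 3666 and 3596 in SIRT1 KD, 2248, 1975 and 2328 in IGF2BP2 KD, and 3019, 2904 and 3145 in double KD. None of the 4 groups overlapped another, with changes from control of 0.48 (SIRT1 KD), -0.24 (IGF2BP2 KD) and 0.23 (double KD). The IGF2BP2 KD call was lost without control replicate 2 (adjusted p = 0.0503), control replicate 3 (0.0865) or IGF2BP2 KD replicate 2 (0.0849), and the double KD call without control replicate 1 (0.0535). RAB31, which sorts receptors between the trans-Golgi network and endosomes, measured 1813, 1653 and 1759 in control, 1348, 1185 and 1256 in SIRT1 KD, 1825, 1654 and 1821 in IGF2BP2 KD, and 1292, 1283 and 1441 in double KD. It fell by 0.46 in SIRT1 KD and by 0.38 in double KD on the log2 scale, while IGF2BP2 KD overlapped control.

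The RAB5 isoforms, which drive early endosome fusion, moved little. RAB5A measured 1744, 1684 and 1764 in control, 1930, 1896 and 1959 in SIRT1 KD, 1594, 1446 and 1669 in IGF2BP2 KD, and 1747, 1286 and 1827 in double KD. It was called in no comparison with control, with log2 fold changes of 0.16 (SE 0.0996, adjusted p = 0.272), -0.14 (adjusted p = 0.378) and -0.11 (adjusted p = 0.428). RAB5B, the most abundant isoform per kb, was called in all 3, at 0.19 in SIRT1 KD, -0.28 in IGF2BP2 KD and -0.31 in double KD. The SIRT1 KD call of RAB5B was lost without any 1 of 8 libraries (adjusted p up to 0.143, without control replicate 2), and the other 2 calls kept their side of the threshold in every such fit. RAB5C was called in double KD (-0.27), a call lost without control replicate 1 (adjusted p = 0.117), control replicate 3 (0.0888) or double KD replicate 1 (0.0518). Summed over the step, normalised counts stood at 104% of control in SIRT1 KD, 87.6% in IGF2BP2 KD and 86.1% in double KD.

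The recycling step (8 of 9 members tested) held both a main recycling Rab and the most variable low-level gene. RAB11A, the Rab of the slow recycling endosome, measured 2223, 2388 and 2352 in control, 2510, 2506 and 2578 in SIRT1 KD, 1724, 1538 and 1689 in IGF2BP2 KD, and 1715, 1651 and 1900 in double KD. Both groups with IGF2BP2 knockdown lay under every control and SIRT1 KD library. The log2 fold changes were -0.49 in IGF2BP2 KD (SE 0.0686, adjusted p = 6.41e-05) and -0.40 in double KD (SE 0.0686, adjusted p = 0.000153), and 0.13 in SIRT1 KD (adjusted p = 0.192). RAB11B, its closest relative, averaged 1528 ± 47.6 in control and 1581, 1601 and 1595 in the 3 knockdown groups, and was called in none. Double KD differed from SIRT1 KD for RAB11A by -0.53 (adjusted p = 2.00e-05) and from IGF2BP2 KD by 0.09 without passing it (95% interval -0.06 to 0.23, adjusted p = 0.361).

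RAB15, which slows passage through early and recycling endosomes, was the member of this step that rose in all 3 groups. It measured 234, 246 and 239 in control, 401, 429 and 405 in SIRT1 KD, 367, 406 and 378 in IGF2BP2 KD, and 474, 498 and 525 in double KD. Every knockdown library lay above every control library, and the double KD libraries lay above all others. Against control these are log2 fold changes of 0.78 (SE 0.0810, adjusted p = 8.60e-07), 0.68 (SE 0.0810, adjusted p = 1.31e-05) and 1.06 (SE 0.0810, adjusted p = 1.41e-08). The double KD change was smaller than the sum of the single changes by 0.40, which did not pass the interaction test (adjusted p = 0.0679), and did pass it without double KD replicate 2 (adjusted p = 0.0211).

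RAB17, a Rab of polarised recycling in epithelial cells, was read at low level and went in opposite directions in the single knockdowns. It measured 10.5, 11.2 and 11.6 in control, 0.993, 1.86 and 5.26 in SIRT1 KD, 56.2, 44.2 and 57.5 in IGF2BP2 KD, and 10.7, 19.2 and 14.4 in double KD. SIRT1 KD lay under and IGF2BP2 KD above every control library, while double KD overlapped control. The log2 fold changes were -1.88 in SIRT1 KD (SE 0.364, adjusted p = 0.000681), 2.14 in IGF2BP2 KD (SE 0.364, adjusted p = 0.000433) and 0.35 in double KD (SE 0.364, adjusted p = 0.506), and the interaction was 0.09 (adjusted p = 0.955). CDH1, an epithelial marker gene, ranged from 0.890 to 24.1 over the 12 libraries, and its part in the RAB17 values was not tested. In bulk RNA, fewer cells with a transcript and less of it per cell cannot be told apart. Smaller calls of this step were RAB35 (fast recycling, 0.25 in SIRT1 KD), RAB14 (Golgi to endosome, -0.21 in IGF2BP2 KD) and RAB4A (fast recycling, 0.24 in double KD). The RAB35 call was lost without control replicate 1 (adjusted p = 0.0539) or SIRT1 KD replicate 1 (0.0798), the RAB14 call without any 1 of 7 libraries (up to 0.163) and the RAB4A call without any 1 of 9 (up to 0.214).

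**Figure D3:**
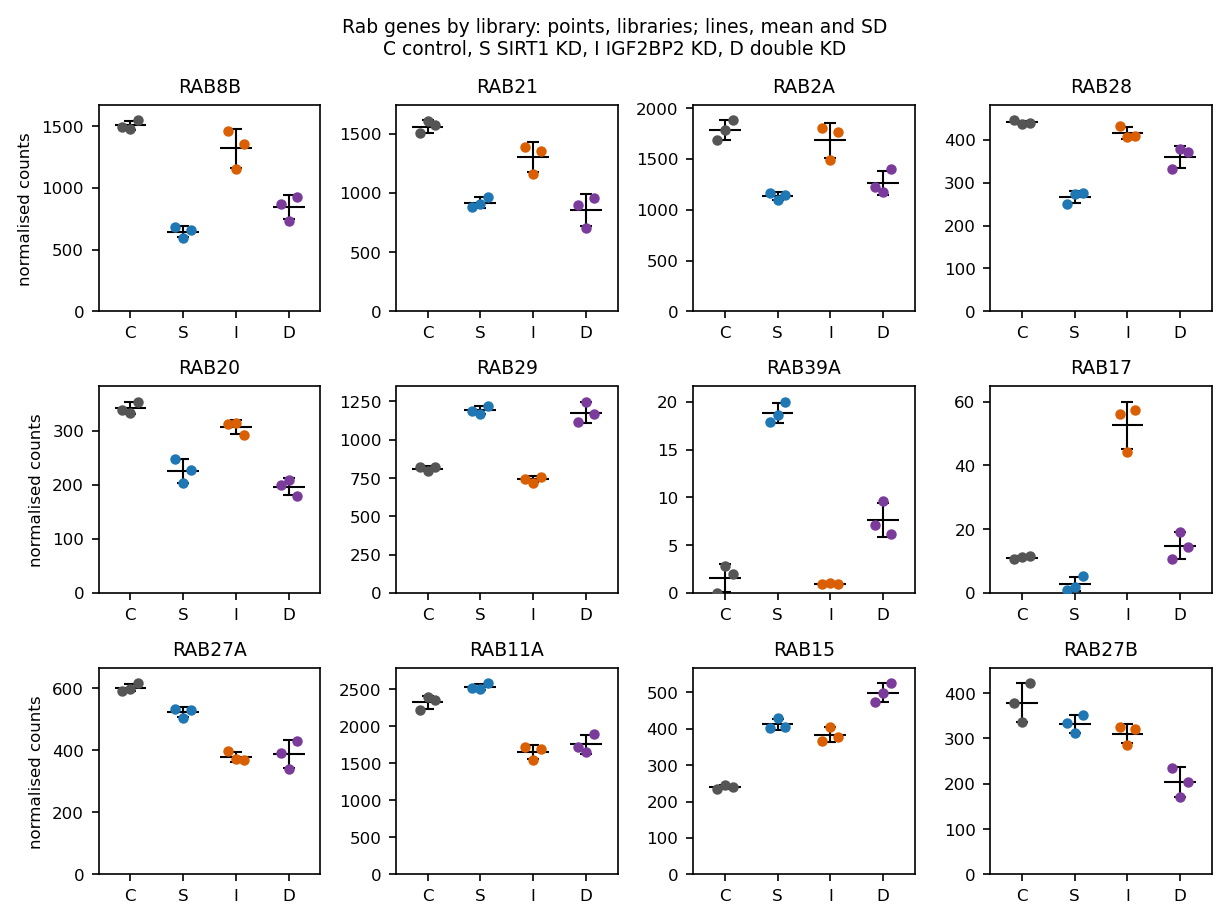
Normalised counts of 12 Rab genes in each of the 12 libraries, on linear axes from 0, with the mean and SD of each group of 3. RAB8B, RAB21, RAB2A and RAB20 are low in both groups with SIRT1 knockdown, RAB27A and RAB11A in both groups with IGF2BP2 knockdown, and RAB17 is high in IGF2BP2 KD and low in SIRT1 KD.

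For late endosomes, lysosomes and autophagy, 8 of 10 members were tested. RAB7A, the Rab of late endosome and lysosome fusion, measured 3376, 3185 and 3415 in control, 2857, 2844 and 2905 in SIRT1 KD, 3449, 3319 and 3433 in IGF2BP2 KD, and 2938, 2506 and 3184 in double KD. The SIRT1 KD and double KD libraries lay under every control library, by -0.21 (SE 0.0742, adjusted p = 0.0389) and -0.22 (SE 0.0742, adjusted p = 0.0310) on the log2 scale. The SIRT1 KD call was lost without any 1 of 8 libraries (adjusted p up to 0.132, without control replicate 3). The double KD call was lost without control replicate 1 (adjusted p = 0.0986), control replicate 3 (0.112) or double KD replicate 2 (0.103, log2 fold change -0.12).

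RAB39A, a Rab of phagosomes and autophagy, was close to silent in control. It measured 0, 2.80 and 1.93 in control, 17.9, 18.6 and 20.003 in SIRT1 KD, 0.892, 1.00 and 0.959 in IGF2BP2 KD, and 7.12, 9.61 and 6.18 in double KD. The SIRT1 KD libraries lay above all others and the double KD libraries above control and IGF2BP2 KD. The fitted log2 fold changes were 3.15 in SIRT1 KD (SE 0.489, adjusted p = 8.27e-05) and 1.93 in double KD (SE 0.489, adjusted p = 0.00486), and with so few control reads their size depends on the added count. Double KD against SIRT1 KD was -1.22 (adjusted p = 0.0840).

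RAB7B, from few reads, and RAB24 were called lower in SIRT1 KD alone. RAB7B, which returns cargo from endosomes to the trans-Golgi network, measured 19.2, 14.01 and 10.6 in control, 6.95, 6.5 and 2.11 in SIRT1 KD, 22.3, 16.1 and 24.9 in IGF2BP2 KD, and 16.9, 6.86 and 11.3 in double KD. Its change of -1.41 in SIRT1 KD (SE 0.398, adjusted p = 0.0117) lost its call without control replicate 1 (adjusted p = 0.0655) or SIRT1 KD replicate 3 (0.0762). RAB24, an autophagy Rab, measured 129, 135 and 153 in control, 82.4, 98.4 and 89.5 in SIRT1 KD, 87.4, 131 and 123 in IGF2BP2 KD, and 93.5, 161 and 101 in double KD. Only its SIRT1 KD libraries lay clear of control, by -0.62 (SE 0.185, adjusted p = 0.0167), and the call was lost without control replicate 3 (0.0747) or SIRT1 KD replicate 1 (0.0703). RAB24 shares 926 exonic bases with MXD3 on the same strand, so their reads may be mixed. Without double KD replicate 2 RAB24 was also called in double KD (-0.51, adjusted p = 0.0052). RAB12, which sends recycling receptors to degradation, was called higher in SIRT1 KD (0.25) and lower in IGF2BP2 KD (-0.40), and the first of these calls was lost without any 1 of 8 libraries (adjusted p up to 0.185, without SIRT1 KD replicate 3).

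For exocytosis and polarised transport, 11 of 12 members were tested, and 8 were called in double KD, 5 of them lower, where 34.2% of all genes were called and 17.5% were lower. RAB8B, which carries vesicles from the trans-Golgi network and recycling endosomes to the plasma membrane, had the smallest adjusted p of any member in SIRT1 KD. The gene lies at chr15:63189469-63267782 on the plus strand (GRCh38), with no annotated exonic overlap with another gene. It measured 1495, 1476 and 1547 in control, 683, 595 and 660 in SIRT1 KD, 1460, 1151 and 1352 in IGF2BP2 KD, and 873, 736 and 922 in double KD. SIRT1 KD stood at 42.9% and double KD at 56.0% of the control mean, with no overlap between these 3 groups. In log2 terms the changes were -1.22 (SE 0.0946, adjusted p = 2.68e-08) and -0.84 (SE 0.0946, adjusted p = 1.52e-06), with -0.20 (adjusted p = 0.182) in IGF2BP2 KD. Double KD was higher than SIRT1 KD by 0.38 (adjusted p = 0.00706), and the interaction was 0.58 (SE 0.134, adjusted p = 0.0272). The interaction call was lost without any 1 of 9 libraries (adjusted p up to 0.0877, without SIRT1 KD replicate 2), and stayed without double KD replicate 2 (0.67).

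RAB8A, the other RAB8 gene, averaged 871 ± 13.1 in control, 897 ± 42.2 in SIRT1 KD, 1043 ± 40.5 in IGF2BP2 KD and 1047 ± 74.2 in double KD. It was called higher in IGF2BP2 KD (0.26, adjusted p = 0.0177) and in double KD (0.26, adjusted p = 0.00798), while RAB8B was not called in IGF2BP2 KD and was lower in double KD. The IGF2BP2 KD call of RAB8A was lost without any 1 of 5 libraries (adjusted p up to 0.0758, without IGF2BP2 KD replicate 1), and 1960 of its exonic bases overlap an antisense gene. RAB10, which shares effectors with RAB8, rose by 0.23 in double KD (adjusted p = 0.0095). Whether the RAB8A and RAB8B changes differ was not tested.

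RAB27A and RAB27B, which dock secretory vesicles and multivesicular bodies at the plasma membrane, were both lower in double KD. RAB27A measured 593, 599 and 616 in control, 534, 503 and 532 in SIRT1 KD, 398, 373 and 368 in IGF2BP2 KD, and 392, 340 and 430 in double KD. Both groups with IGF2BP2 knockdown lay under the other 6 libraries. The log2 fold changes were -0.67 in IGF2BP2 KD (SE 0.0868, adjusted p = 3.23e-05) and -0.64 in double KD (SE 0.0868, adjusted p = 1.35e-05), and -0.20 in SIRT1 KD (adjusted p = 0.0896). RAB27B measured 379, 335 and 421 in control, 335, 312 and 352 in SIRT1 KD, 325, 286 and 320 in IGF2BP2 KD, and 236, 172 and 204 in double KD. Only the double KD libraries of RAB27B lay under every library of the other 3 groups. Its log2 fold change was -0.90 there (SE 0.116, adjusted p = 8.03e-06), against -0.18 (adjusted p = 0.273) and -0.28 (adjusted p = 0.111) in the single knockdowns. The departure from the sum of these, -0.43 (95% interval -0.78 to -0.09), did not pass the interaction test (adjusted p = 0.167), and passed it without double KD replicate 1 (-0.54, adjusted p = 0.0475). Without double KD replicate 2 the double KD changes were -0.55 for RAB27A and -0.78 for RAB27B, both still called.

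Lower members of this step had weaker support. RAB37, a Rab of secretory granules, measured 42.1, 34.6 and 49.2 in control, 27.8, 20.4 and 30.5 in SIRT1 KD, 33.9, 43.2 and 45.1 in IGF2BP2 KD, and 18.7, 16.5 and 26.8 in double KD. Its double KD change of -1.0 (SE 0.231, adjusted p = 0.00236) was called in every fit with 1 library left out. Its SIRT1 KD change of -0.66 (SE 0.231, adjusted p = 0.0389) was not called without control replicate 1 (0.0980) or 3 (0.161), SIRT1 KD replicate 1 (0.0663) or 2 (0.176), or IGF2BP2 KD replicate 3 (0.0508), nor with DESeq2 (0.0546) or no filter (0.0911). RAB3A, of regulated secretion, measured 40.2, 42.0 and 38.6 in control, 35.7, 44.6 and 41.1 in SIRT1 KD, 40.1, 32.1 and 40.3 in IGF2BP2 KD, and 26.7, 26.1 and 31.9 in double KD. Its double KD libraries lay under all control libraries (-0.50, SE 0.180, adjusted p = 0.0383), and the call was lost without any 1 of 6 libraries (adjusted p up to 0.108, without control replicate 2), with DESeq2 (0.135) and with no filter (0.179). RAB3D, a related secretory Rab, rose by 0.37 in double KD (adjusted p = 0.0039).

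**Figure D4:**
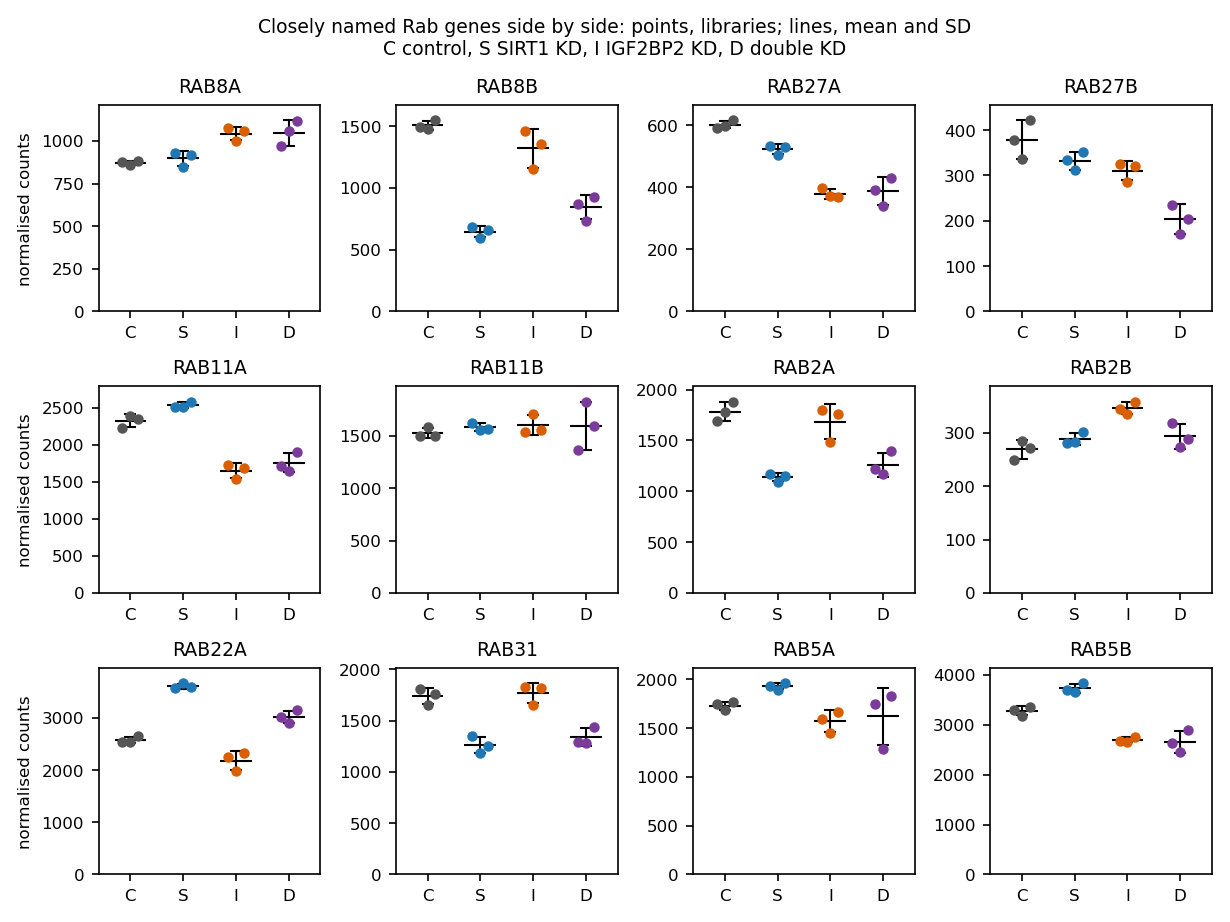
Normalised counts of 6 pairs of related Rab genes in each library, on linear axes from 0, with the mean and SD of each group of 3. RAB8B, RAB2A and RAB31 fall in both groups with SIRT1 knockdown where RAB8A, RAB2B and RAB22A do not, and RAB11A falls in both groups with IGF2BP2 knockdown where RAB11B does not.

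RAB29, RAB32 and RAB38 act on lysosome-related organelles, and their summed counts stood at 126% of control in SIRT1 KD, 88.9% in IGF2BP2 KD and 131% in double KD. RAB29, a partner of the kinase LRRK2 at the trans-Golgi network and lysosome, accounted for much of this. It measured 820, 793 and 822 in control, 1191, 1170 and 1218 in SIRT1 KD, 744, 719 and 758 in IGF2BP2 KD, and 1117, 1248 and 1167 in double KD. Both groups with SIRT1 knockdown lay above all other libraries, by 0.56 (SE 0.0662, adjusted p = 4.30e-06) and 0.53 (SE 0.0662, adjusted p = 4.84e-06) against control. RAB32, which delivers enzymes to melanosomes, was called in double KD (0.28), a call lost without control replicate 1 (adjusted p = 0.0552) or control replicate 2 (0.0515). RAB38, which shares that role, was called in none.

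The cilium pair moved apart in double KD against control. Against SIRT1 KD both were called higher in double KD, RAB23 by 0.38 and RAB28 by 0.43. RAB28, needed in photoreceptor cilia, measured 445, 437 and 439 in control, 251, 273 and 277 in SIRT1 KD, 432, 407 and 409 in IGF2BP2 KD, and 331, 377 and 371 in double KD. Double KD lay between SIRT1 KD and control without overlap with either. The log2 fold changes were -0.72 in SIRT1 KD (SE 0.0830, adjusted p = 2.94e-06) and -0.29 in double KD (SE 0.0830, adjusted p = 0.0103), so double KD was above SIRT1 KD by 0.43 (adjusted p = 0.001). The interaction of 0.51 (SE 0.117, adjusted p = 0.0259) was lost without any 1 of 8 libraries (adjusted p up to 0.0844, without SIRT1 KD replicate 1), and with no filter on low counts (0.113), which also ended the double KD call (0.0790). RAB23, a negative regulator of Hedgehog signalling, measured 496, 527 and 485 in control, 572, 555 and 558 in SIRT1 KD, 517, 466 and 499 in IGF2BP2 KD, and 693, 718 and 791 in double KD. The double KD libraries stood above the other 9, by 0.54 against control (SE 0.0772, adjusted p = 2.33e-05). Its interaction was 0.41, just short of the threshold in limma with the main filter (adjusted p = 0.0517). It passed in limma with a filter at a mean of at least 10 normalised counts (0.41, adjusted p = 0.0488). With all 12 libraries it passed in edgeR (0.40, adjusted p = 0.0472) and DESeq2 (0.40, adjusted p = 0.0202). It also passed without double KD replicate 1 (0.45, adjusted p = 0.0275) or 2 (0.42, adjusted p = 0.00560). RAB23 shares 2842 exonic bases with BAG2 on the opposite strand, and how strand was treated in counting is unknown here.

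Of the RAB40 genes, which serve as adaptors of a ubiquitin ligase, RAB40B was called in double KD (-0.41, adjusted p = 0.018), and the call was lost without control replicate 3 (0.0929) or double KD replicate 1 (0.0504) or 3 (0.0793). RAB40A and RAB40C were not called against control. RAB42, placed in no step, measured 50.8, 41.1 and 55.0 in control, 32.8, 29.7 and 24.2 in SIRT1 KD, 54.4, 42.2 and 38.3 in IGF2BP2 KD, and 27.6, 38.4 and 33.0 in double KD. Its changes were -0.74 in SIRT1 KD (SE 0.202, adjusted p = 0.00981) and -0.56 in double KD (SE 0.202, adjusted p = 0.0408). The SIRT1 KD call was lost without control replicate 3 (0.0544) or SIRT1 KD replicate 3 (0.0554), and the double KD call without any 1 of 5 libraries (up to 0.156, without control replicate 3), with DESeq2 (0.0703) and with no filter (0.120).

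Side by side, the members showed 16 different patterns of calls against the shared control, 9 of them held by 1 member each. No call in any of the 3 comparisons was the most frequent, with 17 members (30.9%, against 51.9% of all genes). Next came lower in SIRT1 KD and in double KD without a call in IGF2BP2 KD, held by 9 members (16.4%, against 6.79% of all genes): RAB2A, RAB7A, RAB8B, RAB20, RAB21, RAB28, RAB31, RAB37 and RAB42. RAB29 and RAB39A had the mirror pattern, higher in the same 2 groups (3.64%, against 6.15% of all genes). RAB11A and RAB27A were lower in IGF2BP2 KD and double KD and not called in SIRT1 KD (3.64%, against 2.73% of all genes). RAB5B, RAB12 and RAB22A were higher in SIRT1 KD and lower in IGF2BP2 KD, and RAB17 the reverse. With their double KD calls, each held a pattern of its own (1.82% of members). In that order the shares of all genes were 0.364%, 1.14%, 0.523% and 0.979%. The SIRT1 KD calls of RAB5B and RAB12 were lost in some fits with 1 library left out. So was the IGF2BP2 KD call of RAB22A. A further 14 members were called in double KD alone (25.5%, against 10.99% of all genes), 7 in each direction. Since members were called more often than all genes in double KD to begin with, these shares are not independent of the counts above. A call in double KD alone does not show a departure from the single knockdowns: with all 12 libraries and the main filter the limma interaction called none of those 14. RAB23 was called by edgeR, by DESeq2, and by limma with a filter at a mean of at least 10 normalised counts (adjusted p = 0.0488). With 1 library left out the limma interaction called RAB23, RAB27B and RAB32 without double KD replicate 1, and RAB23 and RAB30 without double KD replicate 2.

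Most members that were lower in SIRT1 KD held neither 3′ UTR 7-mer. Among 13123 genes with a searched 3′ UTR, 20.003% held CTCAGAT or TCAGATA, and 37.6% of those were called lower in SIRT1 KD against 14.3% of the rest. Of 55 Rab members, 11 held one (RAB3B, RAB9B, RAB10, RAB18, RAB21, RAB22A, RAB27B, RAB30, RAB33B, RAB40B and RAB40C), where genes of like UTR length (0.8 to 1.25 times) would sum to 14.2. Of these 11, RAB21 was called lower and RAB22A higher in SIRT1 KD, and RAB27B, with the joined 8-mer, was not called. Of the 44 members without a site, 11 were called lower, among them RAB8B, RAB2A, RAB28 and RAB20. The 3′ UTR of RAB21 is 14612 bases long, against a median of 2150 in the members and 1327 in all searched genes, and a longer UTR is more likely to hold any 7-mer. A match is a description of letters in the window searched.

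The genes that run the Rab cycle were read from a list of 123, of which 118 were tested. In SIRT1 KD 49 were called, 27 higher and 22 lower, in IGF2BP2 KD 25, 18 higher and 7 lower, and in double KD 59, 39 higher and 20 lower. Their median log2 fold changes were 0.08, 0.02 and 0.13. The higher genes were 22.9%, 15.3% and 33.1% of the list, against 12.9%, 6.86% and 16.7% of all genes, and the lower genes 18.6%, 5.93% and 16.9%, against 15.7%, 9.39% and 17.5% of all genes. All genes are a low yardstick for this list too, since all 118 have a searched 3′ UTR. Of searched genes without a 7-mer, 17.2%, 7.67% and 21.8% were higher, and of those with one 10.5%, 11.1% and 15.9%. Exchange factors had 13 higher and 5 lower of 36 in SIRT1 KD and 15 higher and 4 lower in double KD, and GTPase-activating proteins 4 higher and 8 lower of 36 in SIRT1 KD and 10 higher and 6 lower in double KD. In IGF2BP2 KD the counts were 3 higher and 1 lower for exchange factors and 7 higher and 3 lower for GTPase-activating proteins. Of 38 effectors, 9 were higher and 7 lower in SIRT1 KD, 8 and 2 in IGF2BP2 KD, and 14 and 7 in double KD.

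Of 8 tested genes of prenylation and the membrane cycle, 1 was higher and 2 lower in SIRT1 KD. The counts were 0 and 1 in IGF2BP2 KD, and 0 and 3 in double KD. Within this class the 2 escort proteins that present Rabs for lipidation were lower in both groups with SIRT1 knockdown. RABIF was the gene called higher in SIRT1 KD, by 0.30 to 0.35 on the log2 scale in the fits with 1 library left out. CHML (Rab escort protein, autosomal) measured 1331, 1387 and 1327 in control, 442, 486 and 468 in SIRT1 KD, 1169, 981 and 1152 in IGF2BP2 KD, and 483, 320 and 495 in double KD. Its SIRT1 KD and double KD libraries all lay below the lowest library of the other groups, by -1.53 (adjusted p = 1.2e-07) and -1.66 (adjusted p = 2.9e-08) against control. CHM, the X-linked escort protein, was also lower, by -0.47 (adjusted p = 0.0030) and -0.42 (adjusted p = 0.0057). RABGGTB, the catalytic subunit of the transferase, was lower in IGF2BP2 KD by 0.39 on the log2 scale (2015, 2119 and 2007 in control against 1624, 1447 and 1612, adjusted p = 0.00029). It was also called lower in double KD, at -0.26 to -0.20 in the fits with 1 library left out. That call was lost without control replicate 2 (adjusted p = 0.0549).

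Among exchange factors, DENND6A, which activates RAB14, had the smallest adjusted p of the higher genes in SIRT1 KD and in double KD. It measured 1140, 1189 and 1149 in control, 2340, 2220 and 2278 in SIRT1 KD, 1713, 1460 and 1680 in IGF2BP2 KD, and 2585, 2853 and 2798 in double KD, with log2 fold changes of 0.97, 0.48 and 1.24, all called, while RAB14 itself moved by at most 0.21. RIC1, part of the exchange complex for RAB6, rose by 0.63 in SIRT1 KD and 0.69 in double KD, and RAB3IL1, an exchange factor for RAB8 and RAB3, by 0.78 in SIRT1 KD. DENND2A fell by 0.88 on the log2 scale in double KD (362, 345 and 386 in control against 182, 215 and 197).

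Of the GTPase-activating proteins, RAB3GAP1, the catalytic subunit of the complex that inactivates RAB3 and activates RAB18, was at 2052, 2143 and 2147 in control and 1110, 1012 and 1006 in SIRT1 KD, a change of -1.02 (adjusted p = 2.7e-09), and changed by -0.83 in double KD. TBC1D5, which works with retromer on RAB7, was at 1859, 1876 and 1918 in control, 919, 810 and 947 in SIRT1 KD, 2253, 2106 and 2193 in IGF2BP2 KD, and 1608, 1420 and 1731 in double KD. Its double KD libraries lay between those of SIRT1 KD and control, and the interaction was 0.62 (adjusted p = 0.0071). TBC1D4, known for restraining RAB10 in insulin-responsive cells, rose by 0.46 in SIRT1 KD and 0.33 in double KD and was not called in IGF2BP2 KD (0.04). TBC1D9 rose by 0.43 in IGF2BP2 KD and 0.21 in double KD and was called lower in SIRT1 KD (-0.17, adjusted p = 0.0382), a call lost without any 1 of 8 libraries and with no filter (adjusted p = 0.132). TBC1D13 rose by 0.48 in IGF2BP2 KD and 0.77 in double KD and was not called in SIRT1 KD (0.18). USP6NL, which inactivates RAB5, fell by 0.62 in IGF2BP2 KD on the log2 scale and by 0.83 in double KD.

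Effectors gave the same mixture. RBSN, the rabenosyn that links RAB5 to RAB4, was at 1646, 1728 and 1659 in control, 903, 897 and 898 in SIRT1 KD, 1921, 1749 and 1886 in IGF2BP2 KD, and 1414, 1753 and 1451 in double KD. It fell by 0.90 in SIRT1 KD on the log2 scale, was not called in double KD (-0.13, adjusted p = 0.21), and had an interaction of 0.63 (adjusted p = 0.0063). USO1, the RAB1 tether p115, fell by 1.22 in SIRT1 KD and by 1.31 in double KD. APPL2, an early endosome adaptor of RAB5 and RAB21, rose by 0.43 in SIRT1 KD and fell by 0.69 in IGF2BP2 KD and by 0.43 in double KD. The RAB-like protein RABL6 rose in all 3 groups, by 0.63, 0.57 and 0.92, and EXPH5, a RAB27 effector, fell by 0.61 in IGF2BP2 KD. The interaction called 3 genes of the list, RBSN, TBC1D5 and DENND2A (-0.52), and the DENND2A call was lost without any 1 of 11 libraries (adjusted p up to 0.144, without control replicate 2).

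The 3′ UTR 7-mers were also counted in the cycle genes. Only the shares called lower in SIRT1 KD lay near those of all searched genes. Of 33 list members with a site, 12 were called lower in SIRT1 KD (36.4%, against 37.6% of all searched genes with a site). A further 4 were higher (12.1%, against 10.5%). Of the 85 without a site, 10 were called lower (11.8%, against 14.3% of all searched genes without one). A further 23 were higher (27.1%, against 17.2%). CHML, RAB3GAP1, TBC1D5, RBSN and USO1 each hold a site, and CHML holds the joined 8-mer shown above. TBC1D4, which was higher in SIRT1 KD, holds a site too. TBC1D9, whose lower call in SIRT1 KD was weak, and TBC1D16 also hold the joined 8-mer. Because the 7-mers had been picked on the SIRT1 KD comparison, this describes the genes and supports no link. In IGF2BP2 KD none of the 33 was called lower and 6 were called higher (18.2%). Of all searched genes with a site, 13.2% were lower and 11.1% higher there. Of the 85 without a site, 7 were lower (8.24%, against 11.4% of all searched genes without one). A further 12 were higher (14.1%, against 7.67%). The median 3′ UTR was 3450 bases in the 33 and 1583 in the 85, and the part of UTR length in these counts was not tested.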

How the data were processed

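Per the submitters' processing notes, reads were handled with CASAVA, STAR and DESeq2 on GRCh38.p13. Versions, annotation and strand setting were not given in the sources used here. Values come from a signal table that the authors deposited, gene counts over a per-library size factor, for 60649 IDs, of which 60507 matched a symbol and 58381 GENCODE 29. A deposited table of log2 ratios served only to check the columns: over 10670 genes the SD of the log2 difference was at most 0.00188 for the same library and at least 0.105 for any other. The column code of SIRT1 KD was assigned by elimination. In a table without column names, 12 columns of values were not used.

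Dividing each column by its smallest step gave whole reads for 100% of values in all 12 libraries (tolerance 0.001 reads), and these reads served for the filter (edgeR 4.0.16 filterByExpr, minimum count 10) and for the count tests. The main test was limma 3.58.1 (R 4.3.3, trend and robust) on log2(value + 1), a mean per group, all 12 libraries, Benjamini-Hochberg over 17576 genes; the planned edgeR test on raw counts became an alternative because the named columns are normalised. In simulated data (SIRT1 KD vs control, 17260 genes) it recovered 99% of changes of log2 1 and 80% of log2 0.5, with 12 false calls. Changes were put into 100 genes per size, all with a mean over 100 reads. The recovery therefore does not cover members with fewer reads, nor data in which many genes change.

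Alternatives were TMM rescaling, edgeR quasi-likelihood and DESeq2 1.42.0 on recovered reads, pseudocounts of 0.5 and 5, no filter, a mean of at least 10, only the 2 groups compared, a replicate block, and each library left out. Replicate numbers showed no steady pairing: of 18 same-number pairs, 7 had a correlation of deviations over 0.1 (-0.394 to 0.351). Pairs with different numbers ranged from -0.458 to 0.386. In 17 of 36 comparisons with the 3 libraries of another group, a library correlated best with its own number. This check cannot exclude something shared by libraries of the same number. Every tested member may be named, with all values given for those called against control with a log2 change of at least 0.5 and for RAB5A, RAB7A, RAB11A, RAB27A and RAB27B; values are also given for RAB22A and RAB31, whose values had been seen. Of the Rab cycle list the 5 called genes of smallest adjusted p per direction could be named. CHM and RABIF were named after their values were seen. Members and lists were chosen with earlier results of these data known. Exon lengths, overlaps and the longest 3′ UTR of protein-coding transcripts are from GENCODE 29.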

Additional observations from a re-analysis of the deposited data

Results flagged for a closer look

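For 2 members the interaction test called a difference in the SIRT1 knockdown change between cells without and with IGF2BP2 knockdown. Of these calls, 0 of 2 were kept in all 12 fits with 1 library left out. RAB8B had an interaction of 0.58 on the log2 scale (limma adjusted p = 0.0272, 95% interval 0.29 to 0.86): SIRT1 knockdown changed it by -1.22 from control and by -0.65 from IGF2BP2 KD. RAB28 had an interaction of 0.51 (adjusted p = 0.0259, 95% interval 0.26 to 0.76), with changes of -0.72 and -0.21. Of all tested genes, 2.86% were called in this test, close to the 3.64% of tested members. Groups of 3 libraries are too small to single out an outlying library by the gap to its neighbours.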

How the results depend on the processing

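Of the members' calls, 11 of 19 in SIRT1 KD, 6 of 10 in IGF2BP2 KD and 20 of 31 in double KD kept their side of the threshold in all 12 fits with 1 library left out, against 12 of 18 and 15 of 23 for double KD against SIRT1 KD and against IGF2BP2 KD, and 0 of 2 for the interaction. Leaving out 1 library, the number of members called ranged from 13 to 25 in SIRT1 KD, 7 to 19 in IGF2BP2 KD, 22 to 32 in double KD, 12 to 22 and 17 to 28 in double KD against the single knockdowns and 0 to 7 for the interaction; for the Rab cycle genes the ranges were 36 to 68, 18 to 46, 51 to 66, 24 to 52, 42 to 62 and 2 to 12. The share of all genes called moved between fits as well and is not set beside the counts in this paragraph. The IGF2BP2 KD counts of 19 and 46 came without double KD replicate 2. That library, left out, also turned RAB1B in double KD against IGF2BP2 KD from 0.01 to -0.22 (adjusted p = 0.00380), where the fits without 1 library ranged up to 0.16; no other member turned direction with a call. With only the 2 groups compared in the fit, member counts were 31 (SIRT1 KD), 20 (IGF2BP2 KD), 20 (double KD) and 13 (double KD against IGF2BP2 KD), and cycle gene counts 75 and 47 in the single knockdowns and 21 and 31 in double KD against SIRT1 KD and IGF2BP2 KD; the cause was not tested. For the interaction, DESeq2 called 4 members and 5 cycle genes, and no filter 1 member. With the replicate number as a block, members called were 19, 13, 31, 19, 24 and 2 in the 6 comparisons. What samples with the same number share is not known here. Counts of a few reads limit RAB7B, RAB17, RAB37, RAB39A and RAB42.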
